A study of Mus musculus with 2 samples.

Results

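GFRA1-positive stem-like spermatogonia are the germ cells of the testis that carry transcripts of Gfra1, the co-receptor for the growth factor GDNF. They were chosen here by a gate on UMIs, that is, on transcript molecules counted once each by a random barcode. A cell barcode entered with at least 1000 UMIs, at least 500 genes and at most 20% mitochondrial UMIs, at least 3 UMIs of the germ cell genes Ddx4 and Dazl together, and at least 2 UMIs of Gfra1. Barcodes with 2 or more UMIs of the late spermatogonial genes Esx1 and Dmrtb1 together were left out, as were those with 10 or more Stra8 or 20 or more Sycp1 UMIs per 10000, and those with 10 or more UMIs per 10000 of the Sertoli cell genes Aard, Cst9, Cst12 and Sox9 together. The gate found 451 cells among 22096 that passed the quality limits, 269 from the control testis and 182 from the knockout. Gfra1 and the other gate genes are therefore given below as a description of the choice.

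The libraries came from whole testis of C57BL/6 mice that were 13 days old, 1 library per genotype. The control was Psma7 F/+, which has 1 floxed and 1 intact copy of the gene, and its label gives no Cre. The knockout was Psma7 F/-;Stra8-Cre KI/+, with a floxed and a null copy and a Cre driven from the Stra8 locus, so that every cell of the animal carries the null copy and Cre-mediated deletion is added in germ cells that have expressed Stra8. Psma7 encodes an alpha-ring subunit of the 20S proteasome, and the series asks what the constitutive 20S proteasome does in spermatogonia. The number of animals behind each library is not given. With 1 library per genotype differences between genotypes could not be tested against replicates, and all 95% intervals below cover counting error only.

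In the mouse testis a small pool of undifferentiated spermatogonia holds the stem cells. GDNF from Sertoli and peritubular cells binds GFRA1 and its signalling partner RET, and keeps the stem cells cycling without differentiating through factors such as ETV5, LHX1 and ID4. As cells lose GFRA1 and gain NEUROG3, SOX3 and RARG they become progenitors that answer retinoic acid, switch on KIT and commit to differentiation.

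The deposited matrices listed 32285 genes with totals of 146528736 control and 112746953 knockout UMIs. GFRA1-positive cells had a median of 15701 UMIs and 5832 genes in the control, and of 16984.5 UMIs and 5979.5 genes in the knockout, and 4960980 and 3564822 UMIs in all. Their median share of mitochondrial UMIs was 7.25% in the control and 4.09% in the knockout, and it also differed in GFRA1-low (6.14% and 4.10%), early KIT-positive (8.06% and 4.15%) and late differentiating cells (5.74% and 3.89%). In Sertoli-gated cells it was 8.81% and 9.82%. Of the quality barcodes 29 occurred in both libraries, of which 0 were GFRA1-positive cells. A doublet caller marked 15 of the 269 control and 7 of the 182 knockout cells, and these were kept.

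The gate sat on a continuum of Gfra1 levels. Levels are given as a gene's UMIs per 1000000 UMIs of the pooled cells of a class (CPM). Gfra1 itself had 410 CPM in control and 459 in knockout cells, and the median was 6 Gfra1 UMIs per cell in both libraries. Just inside the limit were 47 control and 29 knockout cells with 2 UMIs, and just outside it 104 control and 33 knockout cells with 1 UMI that met every other criterion. Ret, the signalling receptor that pairs with GFRA1, stood at 39.6 CPM just inside and 33.5 just outside in the control, and at 89.1 and 90.4 in the knockout. In the knockout the cells with 1 Gfra1 UMI thus had a Ret level close to that of the cells with 2.

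GFRA1-positive cells made up 9.43% of the control spermatogonia (95% Clopper-Pearson interval 8.38 to 10.6, 269 of 2854) and 55.3% of the knockout spermatogonia (49.8 to 60.8, 182 of 329). The knockout had 147 other spermatogonia against 2585 in the control. Of all cells passing quality the GFRA1-positive cells were 2.39% (control) and 1.68% (knockout). For each 100 Sertoli-gated cells the control had 6.85 and the knockout 2.54, 2.69-fold fewer (2.22 to 3.27). The same comparison gave 8.11-fold fewer GFRA1-low undifferentiated cells (6.30 to 10.6; 334 and 75 cells), 31.3-fold fewer early KIT-positive cells (499 and 29 cells) and 143-fold fewer late differentiating cells with Esx1 or Dmrtb1 (1339 and 17 cells). The smallest ratio of these classes was that of the GFRA1-positive cells, and the ratios lay further from 1 with each later class. These ratios rest on 1 suspension per genotype. A different yield of Sertoli cells would multiply all of them by the same factor, so the size of each ratio depends on that yield and the order of the classes does not. Without cells that held progenitor transcripts (Neurog3, Sox3 or Upp1) the GFRA1-positive cells numbered 118 and 104, and the ratio per Sertoli-gated cell was 2.07.

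The label was checked against the 4 markers that the gate did not use. In the control, Ret was at 105 CPM in GFRA1-positive cells, 35.3 in GFRA1-low cells, 5.1 in early KIT-positive cells and 2.8 in late differentiating cells. Etv5, an ETS factor induced by GDNF and FGF, followed the same order with 118, 28.5, 8.7 and 7.1. Lhx1, a LIM homeobox factor induced by GDNF, was at 23.8 in GFRA1-positive cells and between 1.1 and 2.1 in the other 3 classes. Id4, an inhibitor of bHLH factors that marks the stem cell end of the pool, was at 49.8, 23.2, 7.8 and 5.4. The 95% Poisson intervals of KIT-positive and late cells overlapped for Etv5 and Id4, and for Lhx1 those of all 3 other classes overlapped. Etv5 and Id4 are also expressed by Sertoli cells (43.2 and 48.1 CPM in the control), whereas Ret and Lhx1 were at 0.3 and 0.2 there. The 4 markers thus bore out the label in the pool as a whole, and their genes lie on chromosome 6 (Ret, 118151745 to 118197718), chromosome 16 (Etv5, 22381309 to 22439719), chromosome 11 (Lhx1, 84518284 to 84525535) and chromosome 13 (Id4, 48261228 to 48266026), with Gfra1 on chromosome 19 (58235604 to 58455909), all in mm10.

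**Figure D1:**
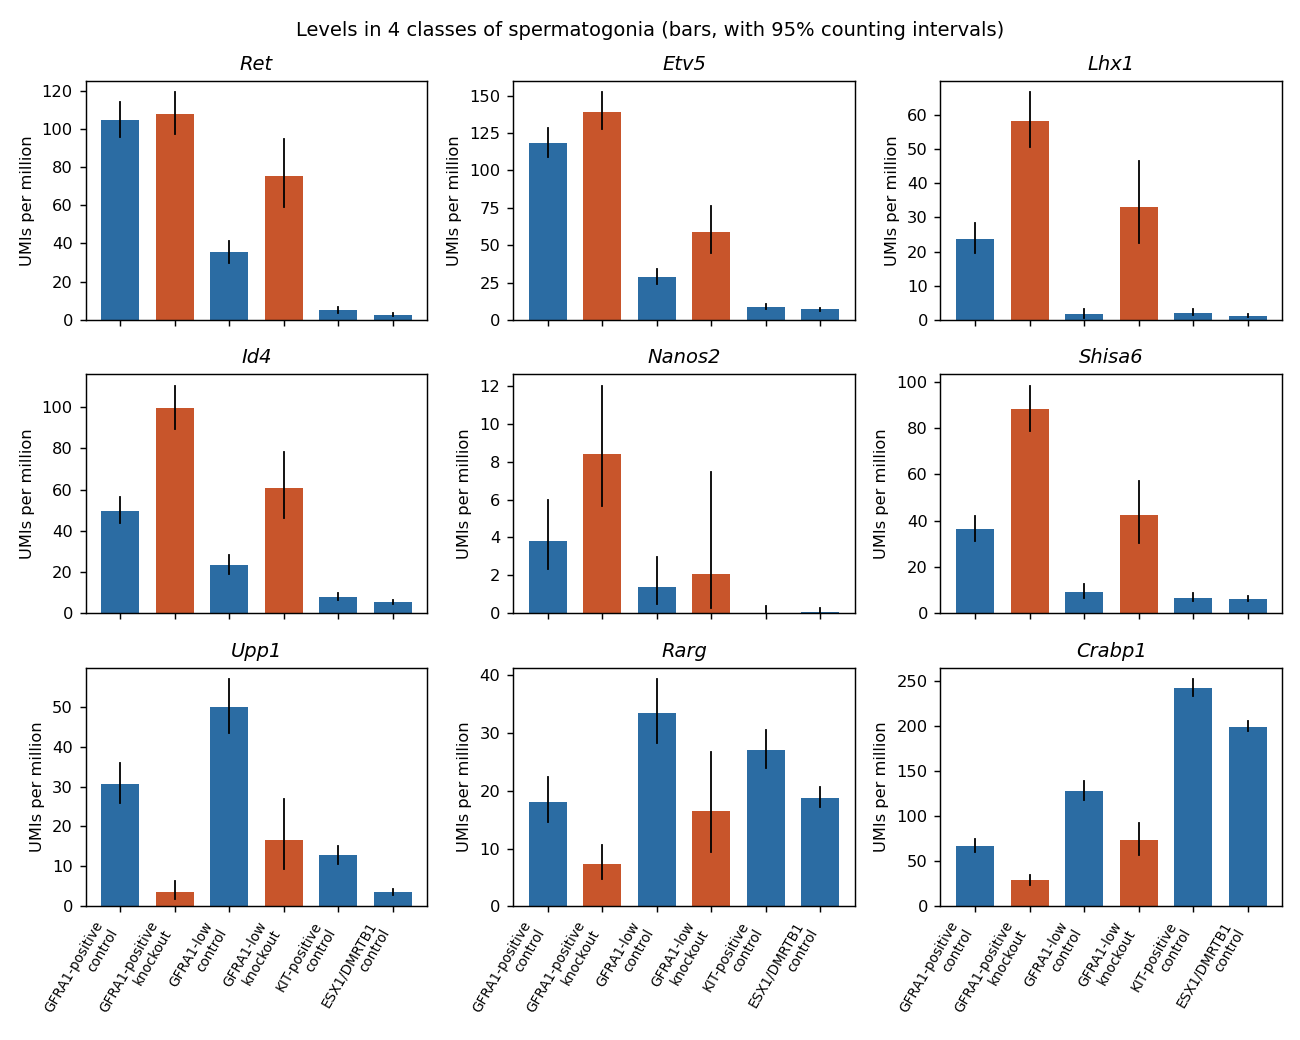
Levels of 9 genes, in CPM, in GFRA1-positive, GFRA1-low, early KIT-positive and late differentiating (ESX1/DMRTB1) spermatogonia of the control (blue) and, for the first 2 classes, the knockout (orange); black lines are 95% Poisson intervals. Lhx1 stands at 23.8 in control and 58.1 in knockout GFRA1-positive cells, and Upp1 at 30.6 and 3.6.

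Over the whole transcriptome, GFRA1-positive control cells were compared with all other control spermatogonia. Genes with at least 30 UMIs over both groups entered, and a ratio past 2-fold counted as high or low. Of 17816 genes, 14.9% were higher and 7.59% lower. By direction alone 55.2% were higher and 44.8% lower, and against GFRA1-low cells 47.6% were higher and 52.4% lower. Of the 20 measured genes of a stem cell list, 15 were past 2-fold higher, 0 were past 2-fold lower and their median log2 ratio was 2.55, against 0.08 for all genes. Of 15 measured GDNF-induced genes 12 were past 2-fold higher, with a median of 2.67. Both lists were drawn up with these data known and describe the gated cells without adding independent support.

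Genes were ranked within the limits for naming that are given with the processing. Apart from the markers, the highest ratios belonged to Kcnc2, a voltage-gated potassium channel gene, with 544 against 12.2 CPM (log2 5.48, interval 5.35 to 5.62). Foxc2, a forkhead factor described in quiescent stem spermatogonia, had 26.6 against 0.89 (log2 4.89), and Tcl1, a co-activator of AKT, 33.7 against 1.67 (log2 4.33). Next came Lhx1 (4.14), Ret (4.0), Rspo2, a WNT agonist (3.80), Etv5 (3.61), Glis3, a zinc finger factor (3.55), Etv4 (3.46) and Tmem132e (3.38). At the other end stood Tbx1 (-3.99), the germ cell histone gene Hist1h2aa (-3.92), Cited1 (-3.62), Zfp286os (-3.61), Prss50 (-3.45) and the histone gene Hist1h2ba (-3.38), followed by Mdp1, Ly6k, Pcsk1n and Ppp4r4, with -3.00 to -2.56. Set against the GFRA1-low class alone, where 2.76% of 14142 genes were higher, Lhx1 (3.81), Kcnc2 (3.12), Tmem132e (2.78) and Foxc2 (2.52) led again. Of the stem cell list 13 of 20 genes were past 2-fold higher than in GFRA1-low cells, and of the progenitor list 2 of 10 were past 2-fold lower, against 3.02% of all genes. The GFRA1-low class was itself gated on the summed UMIs of Zbtb16, Sall4, Lin28a, Upp1 and Sox3. The part of that gate in a lower level of Sox3 or Upp1 against it was not tested.

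The distance to later cells was wider. Against early KIT-positive cells, where 7.07% of genes were past 2-fold higher and 6.28% lower, 15 of 20 stem cell genes were past 2-fold higher (median 2.49) and 3 of 14 differentiation genes past 2-fold lower (median -0.36). Against late differentiating cells, where 20.1% were higher and 8.21% lower, 15 of 19 stem cell and 6 of 10 progenitor genes were past 2-fold higher, and 9 of 15 meiotic entry genes past 2-fold lower (median -1.07).

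Other lists described the state of the control GFRA1-positive cells. Of 26 genes of G2 and mitosis, 24 were lower than in the other control spermatogonia (median -0.65), as were 21 of 24 S-phase genes (median -0.51), although against GFRA1-low cells alone the medians were 0.04 and -0.02. All 22 nuclear genes of oxidative phosphorylation were lower (median -0.63), and 20 of 22 were lower against GFRA1-low cells (median -0.22). Glycolysis genes had a median of 0.29, with 12 of 20 higher beside 55.2% of all genes, but -0.39 against GFRA1-low cells, where 14 of 19 were lower, and -0.13 against early KIT-positive cells. Of the 13 other subunits of the 20S proteasome, 12 were lower (median -0.35). Of the 15 genes of meiotic entry, 13 were lower than in all other control spermatogonia, 9 of them past 2-fold. Against GFRA1-low and early KIT-positive cells alone the medians of meiotic entry were 0.08 and 0.01, with 0 genes past 2-fold lower. These ratios compare cells within 1 library.

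Psma7 (chromosome 2, 180036374 to 180042433, mm10) was at 222 CPM in control GFRA1-positive cells (95% Poisson interval 209 to 235, 1101 UMIs) and at 90.0 in knockout ones (80.5 to 100.5, 321 UMIs). The knockout level was 40.6% of the control level (log2 -1.30, interval -1.49 to -1.12). Both libraries held cells without a Psma7 UMI, 31 of 269 and 68 of 182, and after each cell was thinned to 5000 UMIs a Psma7 UMI was left in 57.8% of control (51.6 to 63.8) and 36.3% of knockout cells (29.3 to 43.8). Which exons are floxed is not given in the sources used here, and a 3' tag can lie outside the deleted part, so the remaining UMIs do not count intact transcripts.

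The residual level of Psma7 was lowest in early KIT-positive cells, but its order against late differentiating cells was not resolved. The intervals of their log2 ratios overlapped (-2.73 to -1.75 and -2.30 to -1.36). It was 36.4% of control in GFRA1-low cells, 21.8% in early KIT-positive cells and 28.9% in late differentiating cells. The log2 ratio of early KIT-positive cells lay 0.90 below that of GFRA1-positive cells (difference -0.90, interval -1.40 to -0.40, on 37 knockout UMIs). For late differentiating cells the difference was -0.49 (-0.98 to -0.01, on 40 knockout UMIs from 17 cells). For GFRA1-low cells the interval of the difference included 0 (-0.16, -0.52 to 0.20). In Sertoli-gated cells, which lie outside the germ line, the knockout level was 38.3% of control, and the difference from GFRA1-positive cells was -0.08 (-0.27 to 0.10). A Psma7 ratio in GFRA1-positive cells at the level seen in Sertoli cells cannot be told apart here from that of the null copy carried by every knockout cell. Psma7 also stood at about the same level in the lower, middle and upper group of cells ordered by Gfra1, at 221, 222 and 223 in the control and 96.9, 90.5 and 81.8 in the knockout.

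**Figure D2:**
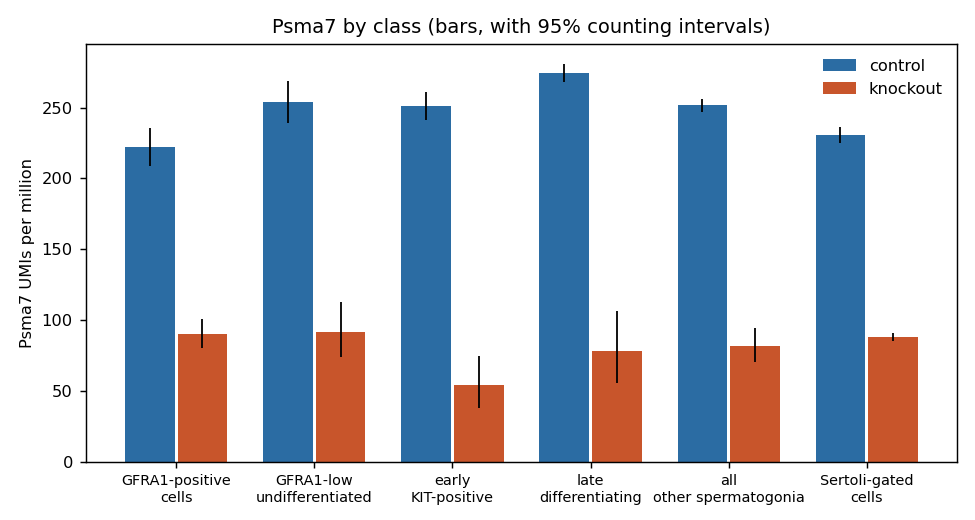
Psma7 in CPM in 5 classes of spermatogonia and in Sertoli-gated cells of the control (blue) and the knockout (orange), with 95% Poisson intervals as black lines. The knockout bars stand between 54.0 and 91.8, that of GFRA1-positive cells at 90.0.

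Between the genotypes most genes of the GFRA1-positive cells stood close together. Of 13944 measured genes, 4.02% were past 2-fold higher and 3.21% past 2-fold lower in the knockout, and the median log2 ratio was 0.02. By direction alone 51.5% were higher and 48.5% lower, the background for the list counts below. In GFRA1-low cells these shares were 53.7% and 46.3%, and in Sertoli-gated cells 55.9% and 44.1%. Stem cell genes lay on the higher side and progenitor genes on the lower. Of the 21 measured members of the stem cell list, 17 were higher in the knockout, 3 of them past 2-fold, with a median log2 ratio of 0.25. Of the 10 measured progenitor genes, 8 were lower, 4 of them past 2-fold, with a median of -0.74. The same stem cell list had a median of 0.86 in GFRA1-low cells, with 11 of 15 measured genes higher and 7 past 2-fold beside 6.62% of all genes, and of 0.36 in Sertoli-gated cells, with 10 of 14 higher. The progenitor list had -0.76 in GFRA1-low cells, with 8 of 10 lower, and -0.08 in Sertoli-gated cells.

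The stem cell list split into genes with a large difference and genes with little or none. Lhx1 was at 23.8 CPM in the control (118 UMIs in 62 cells) and 58.1 in the knockout (207 UMIs in 88 cells), a log2 ratio of 1.29 (0.95 to 1.63). Shisa6, a WNT antagonist of stem spermatogonia, was at 36.3 and 88.1 (1.28, 1.01 to 1.55), and Id4 at 49.8 and 99.6 (1.00, 0.76 to 1.24). Nanos2, an RNA-binding repressor of differentiation, was at 3.8 and 8.4 (1.12, 0.26 to 2.05) on 19 and 30 UMIs. Pou3f1, a POU factor downstream of GDNF, was at 98.6 and 189.6 (0.94, 0.77 to 1.11). For these 5 genes the intervals of the 2 libraries did not overlap, except for Nanos2.

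Smaller ratios were those of Tcl1 (0.61), Foxc2 (0.54), Pax7 (0.52), the adhesion molecule gene Mcam (0.42), T (0.37), Eomes (0.25) and Plvap (0.25). Etv5 was at 118 and 139 (0.24, 0.06 to 0.41), Bcl6b had 0.20 and the surface marker gene Cd9 0.15. Ret was at 105 and 108, and its ratio of 0.04 had an interval from -0.15 to 0.24. Tspan8 (0.03), Tcf15 (-0.04), Egr4 (-0.05), Tert (-0.22) and Bmi1 (-0.27) had intervals that included 0. Pdx1 had 3 and 2 UMIs and was not measured. Ret thus stood at similar levels in both libraries while Lhx1, Shisa6, Nanos2, Id4 and Pou3f1 did not. When cells were thinned to 5000 UMIs before the gate was applied, which left 127 control and 73 knockout cells, the median of the list was 0.01, with Lhx1 at 0.90, Id4 at 0.19, Etv5 at -0.03 and Foxc2 at -1.08.

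Upp1, a uridine phosphorylase gene that marks progenitors, had the lowest ratio among the progenitor genes. It was at 30.6 in the control (152 UMIs in 79 cells) and 3.6 in the knockout (13 UMIs in 11 cells), a log2 ratio of -3.02 (-4.01 to -2.25). Rarg, the retinoic acid receptor that makes progenitors competent to differentiate, was at 18.1 and 7.3 (-1.30, -2.00 to -0.67). Neurog3, the bHLH factor that defines progenitors, had 25 UMIs in 19 control cells and 8 in 3 knockout cells (-1.11, -2.53 to 0.03), and the homeobox gene Rhox10 was at 16.1 and 7.9 (-1.02). Sox3, an SRY-box factor, was at 69.1 and 39.3 (-0.81, -1.11 to -0.53), and Lin28a, an RNA-binding protein gene, at 50.2 and 31.4 (-0.67, -1.01 to -0.35). Mycl (-0.65) and Pou5f1 (-0.39) had intervals that included 0, as had Nanos3 (0.22) and Ddit4 (0.14). Magea4 had 0 and 1 UMIs. In the 127 and 73 cells left after thinning before the gate, Sox3 (0.12) and Lin28a (0.30) were on the higher side, as was Kit (0.25), the receptor gene of differentiating cells described below. Of 12 measured genes shared by all undifferentiated spermatogonia, 4 were higher and 8 lower, 0 past 2-fold, with a median of -0.08. Zbtb16, the transcription factor PLZF, was at 508 and 409 (-0.31), and Cdh1, the gene of E-cadherin, at 28.4 and 14.9 (-0.93). Against the median gene of similar genomic span, a measure described below, Zbtb16 was at -0.07.

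**Figure D3:**
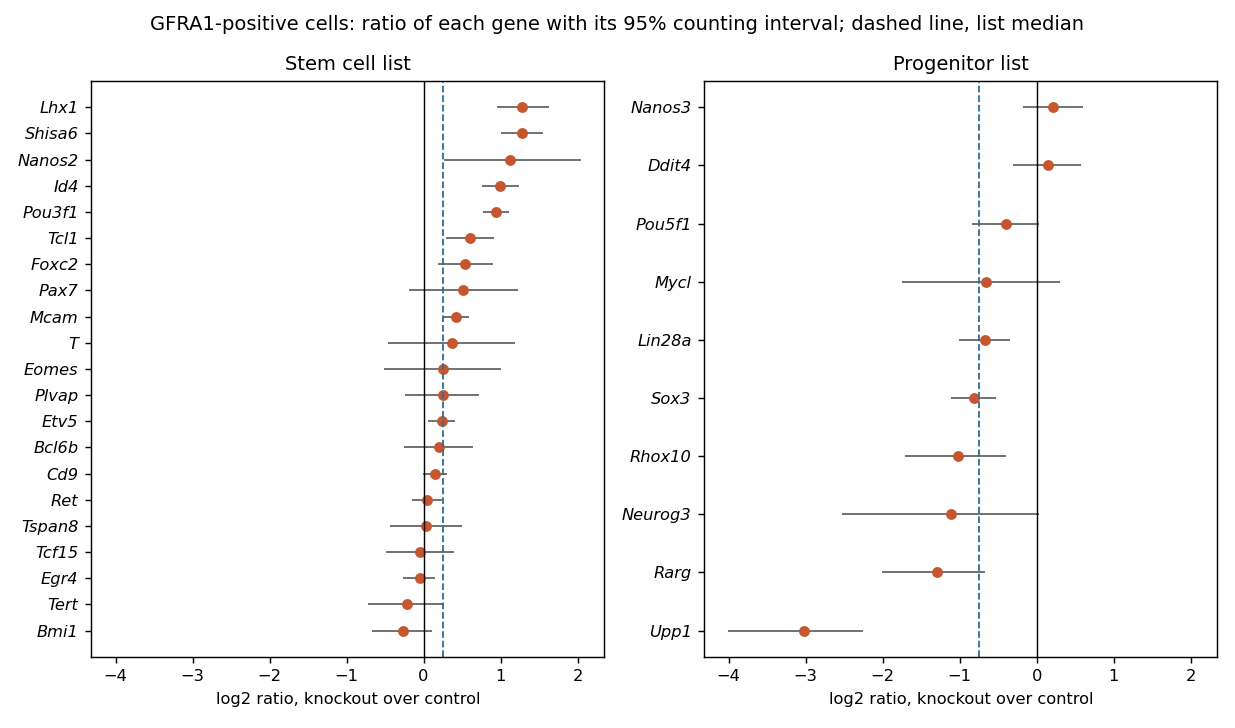
Log2 ratio of knockout over control in GFRA1-positive cells for each measured gene of the stem cell list (left, 21 genes) and the progenitor list (right, 10 genes); grey lines are 95% counting intervals and the dashed line is the list median. Stem cell genes have a median of 0.25 and progenitor genes of -0.74, with Upp1 at -3.02.

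In single cells the same was seen after all cells were thinned to 5000 UMIs, which left out 6 control and 3 knockout cells. Lhx1 was then detected in 12.5% of control cells (8.8 to 17.2) and 27.4% of knockout cells (21.0 to 34.5), and in 0.1% of Sertoli-gated cells of either library. Before thinning the shares were 23.0% and 48.4%. Id4 was detected in 25.1% and 37.4% of the thinned cells, with 16.4% and 20.7% in Sertoli-gated cells, which express it. Shisa6 was detected in 14.8% and 24.0% of the thinned cells and in 26.3% and 38.9% of the Sertoli-gated ones, which therefore give no background for it. Shisa6 was at 23.8 and 58.9 CPM in free RNA, and with 10% of the UMIs subtracted as free RNA its log2 ratio was 1.27. Upp1 was detected in 11.4% (7.8 to 15.9) and 1.1% (0.1 to 4.0), beside 1.2% and 0.9% of Sertoli-gated cells, so that the knockout share lay at the background. Ret was detected in 42.2% and 43.6%. A UMI of Neurog3, Sox3 or Upp1 was found in 28.1% of the thinned control cells (22.8 to 34.0) and 17.3% of the thinned knockout cells (12.1 to 23.7), and in 56.1% and 42.9% before thinning. At least 3 of Ret, Etv5, Lhx1 and Id4 were detected together in 12.5% of the thinned control and 19.6% of the thinned knockout cells.

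The genes differed in how they followed Gfra1 within each library. The cells were ordered by Gfra1 per UMI and split into a lower, a middle and an upper group of 90, 90 and 89 control and 61, 61 and 60 knockout cells. In the control, Lhx1 went from 5.3 CPM in the lower group to 65.7 in the upper, and Id4 from 28.9 to 76.5. Sox3 went the other way, from 100.4 to 24.9, and so did Upp1, from 47.8 to 15.8. In the knockout, the lower group held Lhx1 at 38.6 and Id4 at 88.5, and the upper group held 68.9 and 100.8. Because the groups were cut in each library separately, they were not matched for Gfra1. In the lower group Gfra1 was at 124.9 in the control and 160.4 in the knockout. In the upper group the Lhx1 intervals of the libraries overlapped, whereas in the lower group the knockout interval (28.7 to 50.7) lay above the control interval (2.7 to 9.2). Ret went up with Gfra1 in both libraries, from 58.7 to 177.1 in the control and from 71.1 to 147.3 in the knockout. The groups differed in depth, with medians of 21218, 15227 and 12320 UMIs in the control and 17147, 15171 and 17451.5 in the knockout. The part of depth in these orders was not tested.

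**Figure D4:**
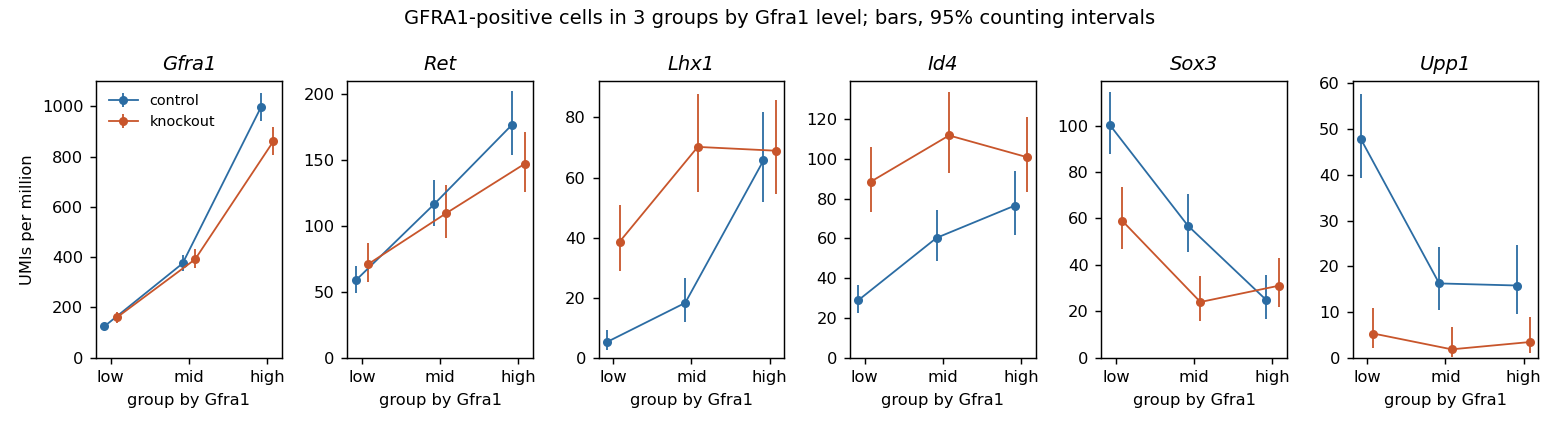
Levels of 6 genes, in CPM, in GFRA1-positive cells split within each library into 3 groups by Gfra1 per UMI (low, mid, high). The control is blue and the knockout orange, with 95% Poisson intervals. Lhx1 is at 5.3 in the lower control group and 38.6 in the lower knockout group, and at 65.7 and 68.9 in the upper ones.

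When only the cells with 0 UMIs of Neurog3, Sox3 and Upp1 were compared (118 control and 104 knockout cells), the stem cell list had a median of 0.05. Within these cells Lhx1 was at 52.3 and 88.1, Id4 at 65.1 and 115, and Shisa6 at 79.0 and 137, each higher in the knockout. Ret was at 161 and 115 and Etv5 at 182 and 155, each lower in the knockout. For Etv5 the intervals overlapped (161.8 to 203.6 and 137.8 to 174.6). The direction for Ret and Etv5 thus depended on which cells were compared, and that for Lhx1, Id4 and Shisa6 did not. Gfra1 itself was at 663 and 528, which describes the choice, because the gate used it. The cells compared were not matched for depth: the median was 12985 UMIs per control cell and 15210 per knockout cell. The part of depth in these levels was not tested. Cells that hold fewer progenitor transcripts and less progenitor RNA in each cell cannot be told apart in the summed values.

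Genes downstream of the growth factor receptors were mostly higher in the knockout, while the receptor machinery was not. Of 16 GDNF-induced genes 15 were higher, with a median of 0.61. This list shares 8 genes with the stem cell list. Beside Lhx1 and Nanos2, Egr3, an immediate-early zinc finger gene, had the highest ratio, with 6.0 and 17.7 CPM (1.53, 0.90 to 2.23). Mycn was lowest (-0.19), next to Tspan8 (0.03) and Bcl6b (0.20). Of 14 measured FGF and ERK response genes 13 were higher (median 0.54). Dusp4 (1.12), Spry4 (0.98) and Dusp6 (0.93), all of them feedback inhibitors of ERK signalling, led, and the receptor genes Fgfr1 (-0.10) and Fgfr2 (0.22) and the inhibitor gene Spred2 (0.11) were lowest. The FGF and ERK list was also higher in GFRA1-low cells (median 0.69, 12 of 12) and in Sertoli-gated cells (0.39, 14 of 15). Of the 23 genes of the GDNF receptor and its signalling chain, 11 were higher and 12 lower (median -0.01). In that list the adaptor gene Shc1 (0.42) and the phosphatase gene Ptpn11 (0.31) were highest, and Mapk3, the gene of ERK1, was lowest (-0.71).

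Immediate-early genes, which mark a recent stimulus and also cell dissociation, were all higher, 21 of 21, with a median of 0.83 and 7 past 2-fold. Ier3 had 23.0 and 59.5 CPM (1.37), Ier2 36.7 and 91.2 (1.31). In Sertoli-gated cells the median of the same list was 1.04, and in GFRA1-low cells 0.73. With 10% of the UMIs subtracted as free RNA it was 0.18 in GFRA1-positive cells, and over all 19 alternatives it ran from 0.18 to 1.34. The upper limit of the free RNA share in these cells was 2.26% in the control and 1.85% in the knockout. Egr3, Dusp6 and other genes of the 2 lists above belong to the same response, and the medians of GDNF-induced genes were 0.90 in GFRA1-low and 0.33 in Sertoli-gated cells. What a shift of the whole suspension adds to them was not tested.

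Genes of the retinoic acid pathway and of differentiation were lower. Of 15 measured retinoic acid genes 10 were lower, 5 of them past 2-fold, with a median of -0.29. Rarb, a receptor gene that retinoic acid induces, was at 8.1 and 2.8 (-1.47, -2.69 to -0.50), and Crabp1, a cellular retinoic acid-binding protein gene, at 67.1 and 29.2 (-1.20, -1.53 to -0.88). Rarg is given above, and Aldh1a2, a synthesis enzyme gene, was at -1.02. The highest were Aldh1a3 (0.62), Rdh11 (0.42) and Aldh1a1 (0.27). Of 13 measured differentiation genes 9 were lower (median -0.58). Kit, the receptor gene that marks differentiating spermatogonia, was at 45.6 and 18 (-1.34, -1.77 to -0.94). Ccnd2 (0.45), Sohlh2 (0.32) and Elmo1 (0.23) were highest. The median of the differentiation list was -0.33 in GFRA1-low cells and -1.11 in Sertoli-gated cells, where 12 of 14 genes were lower and 7 past 2-fold beside 3.29% of all genes. In GFRA1-positive cells it was -0.35 with 10% of the UMIs subtracted as free RNA, and -0.55 with the measured share subtracted.

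Ly6k and Prss50, genes of late spermatogonia, had 131 and 75 control UMIs but 2 and 1 knockout UMIs. Their ratios are -5.24 (-8.62 to -3.67) and -5.18 (-11.07 to -3.23), but 1 control cell held 77 of the Ly6k UMIs and 1 held 45 of those of Prss50. In free RNA Ly6k was at 277 and 0.59 CPM and Prss50 at 126 and 0. A free RNA share of 10% would reach the control level of Ly6k (26.4 CPM). The upper limit of that share, taken from Sertoli genes, was 2.26% in these control cells. The part of free RNA in the 2 ratios was not tested. Without the cells that held either transcript, the stem cell median was 0.12 and the progenitor median -0.81. Of 15 meiotic entry genes 14 were lower (median -0.44), with Spo11 (-1.16), Meioc (-1.11) and Prdm9 (-0.92) lowest and Rad51ap2 (0.44) highest. In Sertoli-gated cells the list's median was -1.68, while its summed level was 198 CPM in the control and 151 in the knockout. The part of free germ cell RNA in this result was not tested. In GFRA1-positive cells the meiotic entry median was -0.23 with 10% of the UMIs subtracted as free RNA and -0.41 with the measured share subtracted. It was 0.11, on the higher side, in the 127 and 73 cells left after thinning before the gate. Of 13 piRNA pathway genes 12 were lower (median -0.34), led by Piwil4 (-1.07), against a median of -1.38 in Sertoli-gated cells. With 10% or the measured share subtracted as free RNA the piRNA median was -0.25 or -0.32.

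Targets of p53 were higher in the knockout. Of 21 measured targets 19 were higher and 6 past 2-fold, with a median of 0.48. Cdkn1a, the inhibitor of cyclin-dependent kinases p21, was at 4.6 (23 UMIs in 21 cells) and 18.5 (66 UMIs in 46 cells), a log2 ratio of 1.98 (1.29 to 2.75). Eda2r, a death receptor family gene, was at 7.1 and 29.2 (2.03, 1.48 to 2.64), and Pmaip1, the gene of the BH3-only protein NOXA, at 40.7 and 142.8 (1.81, 1.57 to 2.05). The other 3 past 2-fold, named after their values were seen, were Ccng1 (1.58), Phlda3 (1.24) and Btg2 (1.20), the last of which is an immediate-early gene too. Of the same list, Aen (0.02), Sesn1 (-0.10) and Xpc (-0.32) were lowest, and Mdm2 (0.26) and Bax (0.11), named after their values were seen, were nearer to 0 than the list's median. The list median was 0.46 in GFRA1-low cells, where 6 of 21 targets and 6.62% of all genes were past 2-fold higher, and 0.03 in Sertoli-gated cells. The summed level of the list was higher in the knockout in Sertoli-gated cells too (1481 and 1878 CPM), as in GFRA1-positive cells (1101 and 1539). In GFRA1-positive cells the list median was 0.16 when cells were thinned before the gate and 0.24 over the targets with at least 100 UMIs. After thinning, Cdkn1a was detected in 2.7% of control cells (1.1 to 5.4) and 12.3% of knockout cells (7.9 to 18), and in 2.5% of Sertoli-gated cells of both libraries. Cdkn1a stood between 16.4 and 20.3 in all 3 Gfra1 groups of the knockout and between 3.3 and 6.1 in those of the control.

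The other proteasome genes were higher by a small amount. All 13 other subunits of the 20S particle were higher, between 0.15 (Psmb2, 382 and 423 CPM) and 0.50 (Psmb4, 211 and 297), with a median of 0.38 and 0 past 2-fold. Psma6 (0.46) and Psma1 (0.47) were next to Psmb4, and Psma4 (0.15) and Psma2 (0.16) next to Psmb2. Of 19 genes of the 19S regulator 17 were higher (median 0.32), from Psmd13 (-0.06) to the ATPase genes Psmc1 (0.59) and Psmc2 (0.82). Pomp, the chaperone gene of 20S assembly, was at 166 and 290 (0.81, 0.67 to 0.94), whereas the list of special subunits, activators and chaperones that holds it had a median of -0.05. In GFRA1-low and Sertoli-gated cells the 20S medians were -0.05 and 0.03, and in GFRA1-positive cells thinned before the gate the median was 0.09.

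Of the cell cycle lists, G2 and mitosis genes had a median of 0.30, with 20 of 26 higher. Aurka (0.72), Ccnb2 (0.69) and Nusap1 (0.65) were highest and Aurkb (-0.19), Bub3 (-0.09) and Bub1 (-0.08) lowest. The median of this list was 0.00 in GFRA1-low cells, with 13 of 26 higher, and 1.63 in Sertoli-gated cells, with 26 of 26 higher. S-phase genes had a median of 0.06. In the G1 list, Cdk6, a cyclin D-dependent kinase gene, was at 97.2 and 25.5 (-1.92, -2.27 to -1.60), and Cdkn1b (-1.04) and Ccnd3 (-0.77) were lower too, while Cdkn2b (0.84), Ccne1 (0.72) and E2f2 (0.71) were higher. Glycolysis genes had a median of 0.41 with Ldhb (1.46), Aldoa (1.10) and Tpi1 (0.97) highest and Pgk1 (-0.26) lowest, beside medians of 0.26 in GFRA1-low and 0.23 in Sertoli-gated cells. Heat shock genes were higher in 17 of 17 cases (median 0.28), Hspb1 (1.54) most, as they were in 12 of 18 cases in GFRA1-low cells (median 0.06) and in 16 of 18 in Sertoli-gated cells (median 0.50). In GFRA1-positive cells thinned before the gate the heat shock median was 0.12 and that of glycolysis 0.24. Of the stress response genes Ddit3, the gene of CHOP, was at 15.1 and 39.8 (1.39), and the autophagy receptor gene Sqstm1 at 117 and 235 (1.01), within lists whose medians were 0.19 and -0.01.

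**Figure D5:**
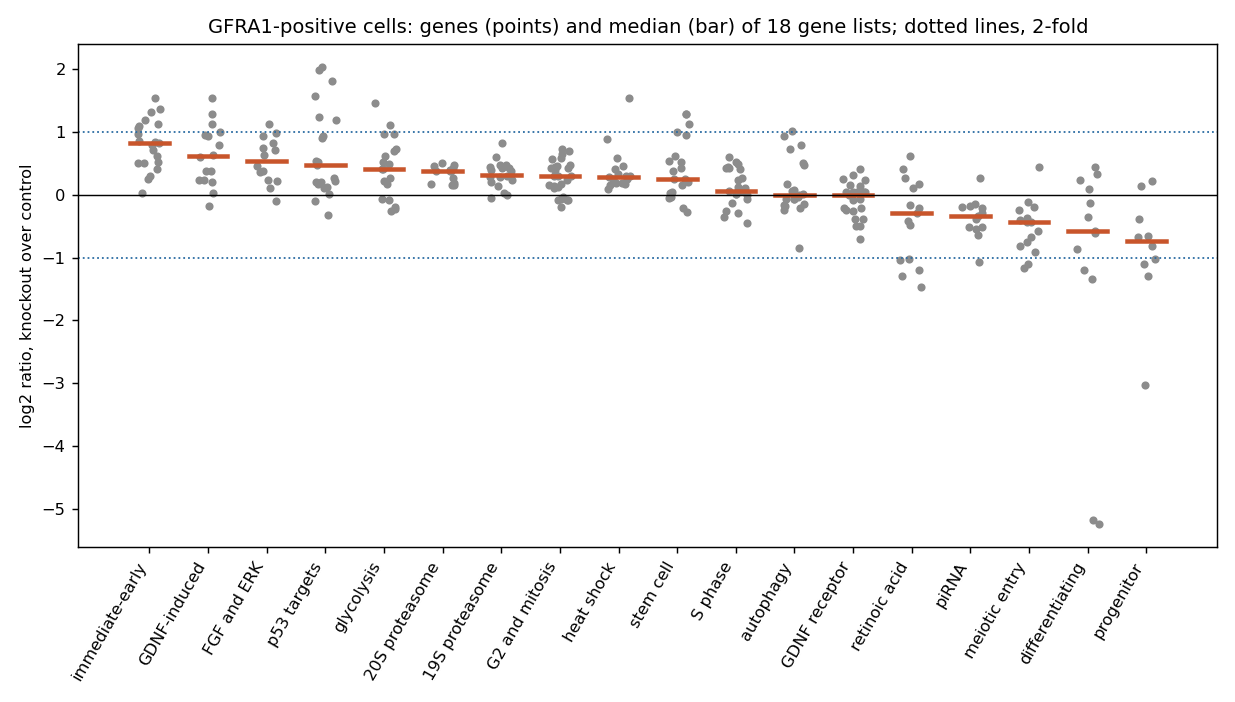
Log2 ratio of knockout over control in GFRA1-positive cells for the measured genes of 18 lists (grey points) with each list's median (orange bar); dotted lines mark 2-fold. Medians run from 0.83 for immediate-early genes to -0.74 for progenitor genes.

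A pair of measures moved with these small shifts. The ratio of a gene followed its span in the genome, the distance between the ends of the gene: in GFRA1-positive cells with genes in 10 equal groups by span, its median went from 0.28 in the shortest group (median span 2.88 kb) to -0.24 in the longest (237 kb). In GFRA1-low cells it went from 0.14 to -0.14 and in Sertoli-gated cells from 0.34 to -0.07. The median span was 3.97 kb in the immediate-early list, 5.87 in the GDNF-induced, 6.03 in the progenitor and 8.07 in the stem cell list. It was 10.1 kb for oxidative phosphorylation, 10.4 for heat shock, 13.3 for 19S and 21.7 for 20S genes. In span group 5 of all genes it was 22.5 kb. With each ratio taken against the median gene of its span group, the 20S median was 0.22, that of 19S genes 0.21, of heat shock genes 0.13, of p53 targets 0.36, of GDNF-induced genes 0.54, of stem cell genes 0.20 and of progenitor genes -0.96. The other measure was the lower mitochondrial share of the knockout cells: it was lower in the other spermatogonia too, and with at most 10% mitochondrial UMIs allowed in both libraries the 20S median was 0.26.

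Among genes within the limits for naming, which are given with the processing, those with the largest ratios were few-cell signals on the higher side. Gzmc, a granzyme gene, had 158 UMIs in the knockout, of which 154 came from 1 cell. Ckmt2, a mitochondrial creatine kinase gene, had 9 UMIs in 7 control cells and 133 in 18 knockout cells (4.29, 40 of them in 1 cell), and Slamf1 20 UMIs in 11 and 202 in 15 cells (3.78). Arhgap15 had 3.21, and 82 of the 108 knockout UMIs of Myocd (2.62) came from 1 cell. More cells carried Phkg1, a phosphorylase kinase gene, with 93 UMIs in 64 control and 287 in 92 knockout cells (2.10). Mapk11 (2.08), Stpg4 (2.06) and Eda2r were also among the 10 highest. Phkg1 is also expressed by Sertoli cells, where it was higher in the knockout too (194 and 340 CPM).

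On the lower side Upp1 came first among the genes within these limits. Ly6k, given above with a lower ratio, was left out by the free RNA limit. Sorcs3, a sorting receptor gene, followed with 39.9 and 7.6 CPM (-2.37), and Kcnd2, a potassium channel gene, with 67.5 and 13.7 (-2.28). Mei1, a gene of meiotic recombination, had 54.6 and 11.2 (-2.27). Mctp1 (-2.18), Dscam (-2.03), Cobl (-1.94), Cdk6 (-1.92), Onecut2 (-1.92) and Slc24a4 (-1.89) completed the 10 lowest. In control spermatogonia Kcnd2, Mei1, Mctp1 and Cdk6 were higher in early KIT-positive cells (143, 105, 77.3 and 280 CPM) than in GFRA1-positive ones, whereas Sorcs3 was highest in the GFRA1-positive cells (39.9, against 30.1 in GFRA1-low and 21.1 in KIT-positive cells).

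Markers of other cell types were low but not absent. Of 16 measured Sertoli genes outside the gate 10 were higher in the knockout (median 0.34), and their summed level was 333 and 420 CPM, with Amh at 1.4 and 7.9. Taken from the Sertoli gene that allowed the lowest share, free RNA made up at most 2.26% of the UMIs of control and 1.85% of those of knockout cells. Stromal markers summed to 235 and 306, myoid markers to 183 and 130, endothelial markers to 50.2 and 50.5, Leydig markers to 53.2 and 25.8, macrophage markers to 12.7 and 32.0 and blood markers to 15.9 and 38.2. In the GFRA1-low cells used for comparison the stromal sum was 675 in the control and 2234 in the knockout. Of the defining macrophage genes C1qa had 2 and 0 UMIs and Adgre1 0 and 2. The 1 macrophage marker with enough UMIs to be measured was higher in the knockout (log2 1.63). The summed level of the macrophage list was higher too (log2 1.33, interval 0.88 to 1.80). Without the cells rich in markers of these 6 types, chosen after the data were seen, Lhx1 had a ratio of 1.30, Upp1 of -3.00 and Cdkn1a of 2.15.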

How the data were processed

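Whole-testis suspensions of 1 control and 1 knockout sample were profiled by droplet single-cell RNA sequencing. The authors deposited an unfiltered matrix of UMI counts per gene and barcode for each library, which per the file headers came from Cell Ranger 7.1.0, against mm10 per the submitters' processing notes. Whether reads in introns were counted is not given in the sources used here. The members and gene lists were chosen with earlier results of these data known.

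Counts were read and gated with Python 3.11.15, numpy 2.4.6 and scipy 1.17.1. Doublets were called with Scrublet in scanpy 1.11.5, the automatic threshold of which marked 495 control and 0 knockout barcodes; with the control threshold in both libraries it marked 275 in the knockout, and marked cells were kept. Other spermatogonia were gated by Zbtb16, Sall4, Lin28a, Upp1 and Sox3 (GFRA1-low), Kit (early KIT-positive) or Esx1 and Dmrtb1 (late). UMIs were summed per class and library and divided by the class total, and 0.5 was added to each count in log2 ratios. Genes with at least 30 UMIs over both groups were called measured, and gate genes were left out of the lists. Poisson intervals of levels, conditional exact intervals of ratios and Clopper-Pearson intervals of shares, all at 95%, cover counting error only. Named genes were all measured members of the stem cell and progenitor lists and the 3 highest and 3 lowest of other lists. The 10 highest and 10 lowest genes over the transcriptome were named too. These needed at least 20 CPM (UMIs per 1000000 UMIs of the class) and 30 UMIs in the group with the higher level. Gate, mitochondrial, ribosomal protein, haemoglobin and unnamed genes were left out of that ranking. So were genes whose higher level would be reached by free RNA at 10% of UMIs. Spans came from GENCODE M21 (32158 of 32285 genes matched). The scripts were tested on simulated data. A few genes that meet the rule for named genes are not reported here.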

Additional observations from a re-analysis of the deposited data

How the results depend on the processing

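No paired analysis was possible because each genotype has 1 library, and no library could be left out for the same reason. Psma7 kept its direction under every alternative run (-1.47 to -1.26), as did Lhx1 (0.75 to 1.69), Id4 (0.19 to 1.22) and Cdkn1a (0.80 to 2.39), and Upp1 (-3.27 to -1.92) in each but the cells without progenitor transcripts, where it gives no ratio. No ratio was formed where a gene had at most 3 UMIs in both libraries, as for Nanos2 and Ly6k after thinning before the gate. Thinning to 5000 UMIs before the gate left 127 control and 73 knockout cells, 6.02% and 31.7% of the spermatogonia, with 132 genes past 2-fold higher and 142 lower; medians were 0.0082 (stem cell), 0.45 (GDNF-induced), 0.16 (p53 targets), 0.090 (20S) and 0.11 (meiotic entry), Etv5 was at -0.025, Foxc2 at -1.08, Kit at 0.25, Lin28a at 0.30 and Sox3 at 0.12, and Lhx1 was found in 16.5% and 27.4% and Upp1 in 10.2% and 2.74% of cells. Cells without progenitor transcripts numbered 118 and 104, 4.13% and 31.6% of the spermatogonia, with 2.07-fold fewer per Sertoli cell, 285 genes past 2-fold lower in the knockout and 2104 lower than in other control spermatogonia; medians were 0.25 (progenitor), 0.053 (stem cell), 0.38 (GDNF-induced) and 0.36 (p53 targets), Etv5 was at -0.23, Lhx1 was found in 33.9% and 56.7% of cells, and Upp1, by construction, in 0%. With at least 1 Gfra1 UMI the shares of spermatogonia were 13.1% and 65.3%, Lhx1 was found in 17.7% of control cells, and medians were 0.55 (stem cell), 0.29 (p53 targets) and 0.20 (20S); with at least 3 the shares were 7.78% and 46.5%. With at least 10 Ddx4 and Dazl UMIs the knockout share was 63.8%, Upp1 was found in 37.0% of control cells, and medians were 0.42 (stem cell), 0.79 (GDNF-induced) and 0.34 (p53 targets). At most 10% mitochondrial UMIs gave 2.01-fold fewer cells per Sertoli cell and a 20S median of 0.26. With at least 100 UMIs per gene, 168 genes were past 2-fold higher and 185 lower in the knockout, 1678 higher than in other control spermatogonia, and the p53 median was 0.24; with at least 1 UMI the counts were 3189, 2970 and 6866. With 10% of UMIs subtracted as free RNA, no ratio was left for Ly6k, with the 20S median at 0.45 and the Sertoli marker median at -0.42, and with the measured share subtracted the last was -0.025. Of the alternatives chosen after seeing the data, centring by genomic span gave medians of 0.36 (p53 targets) and 0.22 (20S), and leaving out cells with Prss50 or Ly6k UMIs gave 2.21-fold fewer cells per Sertoli cell, a control share of 7.64%, and medians of 0.31 (p53 targets), 0.33 (20S) and 0.12 (stem cell). Of the values that answer a comparison (counts, shares, Psma7 and the 5 main list medians), 238 stayed within counting error or 1.5 times, 58 moved beyond it and 1 changed sign, the progenitor median. Of the other single genes and lists 475 stayed, 57 moved and 9 changed sign, each given above; of further lists and genes, oxidative phosphorylation changed sign, to -0.041, when centred by span. Ret, whose interval included 0, kept its sign under 13 of 19. The cause was not tested. With 269 and 182 cells, genes under 30 UMIs could not be compared.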
